A study of Rattus norvegicus with 24 samples.

Results

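Libraries 19-1 and 19-2 are the only pair of sequenced libraries in this rat study whose neurons differed strongly in the share taken from crushed nerve branches. By the sample labels, 19-1 held 20 crushed and 4 uncrushed neurons, and 19-2 held 4 crushed and 20 uncrushed neurons. All 24 cells of each library passed the limits of at least 500 genes, at least 1000 unique molecular identifiers (UMIs) and a mitochondrial share under 5%, so that 48 cells are described here out of 1433 that passed in 24 libraries. In the other 15 libraries of dye-labelled neurons the share counted for those branches was 50.0% to 66.7%. Sham libraries are among them, and in these no branch was crushed.

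All neurons came from the L4 and L5 dorsal root ganglia (DRG) of male Sprague-Dawley rats of 200 g. Dyes injected into the branches of the left sciatic nerve 2 weeks before the operation marked which branch a neuron served. In spared nerve crush (SNC) both the tibial and the common peroneal branch were crushed while the sural branch was left whole, and the pair was collected 7 days later. The 4 comparison libraries, called equal-mix here, were also taken 7 days after SNC, from 3 DRG samples, with 24 crushed and 24 uncrushed neurons each (S-2, S-3, 8 and 9). Neurons of sham rats (Xin, 4, 10 and 18) had an exposed, uninjured nerve. The neurons were picked by hand, and a dye tells which branch the axon ran in, not whether that axon was broken. The dye of a single cell is not in its name, so only the mix of a library is known. The paper gives the crushed branches the green dye in its results and the red dye in its methods. Its sample table counts red and green cells, so by the methods 19-1 and 19-2 would change places. The crushed and uncrushed numbers used here are those of the sample labels. Libraries 19-1 and 19-2 shared a reverse transcription date, and the equal-mix libraries were made in the year before. With 1 library a side, the crushed share, the rats and the library cannot be told apart, and values of the pair are descriptions of these libraries unless a fit is named.

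DRG neurons fall into types that carry different senses. Large myelinated neurons, rich in neurofilament, serve touch and the sense of limb position, and those that supply muscle spindles and tendon organs are marked by parvalbumin (Pvalb). Small neurons serve pain, itch and temperature and use peptides, sodium channels of the nociceptor kind and TRP channels. The tibial and common peroneal nerves carry muscle as well as skin axons, whereas the sural nerve is mostly a skin nerve. After an axon is broken, a DRG neuron usually switches on Atf3, Sprr1a, Gal, Jun and other growth genes.

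The cells were deep. The median was 349801 UMIs and 10382 genes per cell in 19-1 and 437462 UMIs and 10028 genes in 19-2, against medians of 170624 to 306475 UMIs and 8427.5 to 9636.5 genes in the other 15 labelled libraries. The summed UMIs were 9470158 and 9526363. All 24 cells of both libraries held UMIs of the neuronal genes Rbfox3, Snap25, Tubb3, Uchl1 and Prph. Summed over 9 immune markers the level was 22.0 CPM, the counts of a gene scaled to a fixed total per library in 19-1 and 12.2 CPM in 19-2, and over 6 vessel and fibroblast markers it was 3.48 and 6.51 CPM. Cldn5 and Lum were at 0 in both, as were the glial markers Sox10 and Kcnj10. No pair of cells in the series had identical counts.

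The data show 3 things. Library 19-1 was far richer in large-fibre and muscle afferent genes. Library 19-2 was richer in itch-type and nociceptor genes, while genes of C-fibre touch and cold neurons were mixed. Genes that respond to axon injury were not higher in the crushed-rich library: 21 of the 23 measured were lower in 19-1 than in 19-2. Of all 8721 genes measured, 4465 were lower. With 6 cells of 1 cluster left out of 19-1, the first difference was smaller, and the medians of the nociceptor and injury genes came close to that of all genes, while the itch-type genes stayed lower. The itch-type genes Sst and Nppb also stood at a low level in cells of other types in 19-2. The part of that low level in the lasting difference was not tested.

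The muscle afferent markers stood furthest apart. Pvalb, a calcium-binding protein of muscle afferents, was at 344 CPM in 19-1 (3256 UMIs) and at 0.315 CPM in 19-2 (3 UMIs), a ratio of 1092 with an exact 95% interval of 373 to 5297. In S-2, S-3, 8 and 9 it was at 4.02, 3.98, 57.6 and 1.69 CPM. All 4 thus lay between the pair. Such intervals, here and below, cover counting error only and not the choice of 24 neurons. Spp1, the secreted protein osteopontin, was at 560 CPM in 19-1, 17.1 CPM in 19-2 and 134 to 433 CPM in the equal-mix libraries, 32.7 times higher in 19-1 than in 19-2. Esrrg, a nuclear receptor of proprioceptors, was at 41.1 and 0.735 CPM. Runx3, the transcription factor that sets the proprioceptor fate, had 65 UMIs in 6 cells of 19-1 and none in 19-2, which makes it at least 21.8-fold higher against a floor of 3 UMIs over the library. Ntrk3, the receptor of neurotrophin-3, was at 109 and 32.8 CPM. Etv1 and Whrn differed by less than 2-fold, at 114 against 60.3 CPM and 41.3 against 31.9 CPM.

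The neurofilament group differed in the same direction, and all 9 of its measured members were more than 2-fold higher in 19-1. Of 8721 genes with at least 10 CPM in either library, 6.71% were at least 2-fold higher in 19-1 and 3.97% at least 2-fold lower, on the scale of log2(CPM + 1). By any amount 4256 were higher in 19-1 and 4465 lower. Nefh, the heavy neurofilament chain, was at 1055 CPM in 19-1, 406 CPM in 19-2 and 714, 668, 992 and 723 CPM in S-2, S-3, 8 and 9. The medium and light chains behaved alike, with Nefm at 1903 and 736 CPM and Nefl at 1969 and 696 CPM, and the equal-mix libraries lay between for both. Scn1a, the sodium channel Nav1.1 of fast-conducting neurons, was at 140 and 3.04 CPM, a ratio of 45.9. Kcnc1, a fast potassium channel, was at 36.0 and 1.15 CPM, and Vsnl1, a neuronal calcium sensor, at 277 and 26.1 CPM. Hapln4, a link protein of the matrix at nodes and synapses, had 583 UMIs in 19-1 and 1 UMI in 19-2, a ratio of 586 with an interval of 105 to 23204, and no equal-mix library exceeded 0.796 CPM. The touch neuron receptor Ntrk2 was at 26.2 and 2.83 CPM, with all equal-mix libraries but one above both. The median log2 ratio was 2.83 over the 9 neurofilament members and 3.15 over the 6 measured muscle afferent members, which share Ntrk3, beside -0.01 over all 8721 genes.

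Single cells showed 2 layers behind these sums. In 19-1 the lowest cell held 41.9 CPM of Pvalb, the median cell 73.5 CPM and the highest 1327 CPM, whereas in 19-2 the median was 0 and the highest 5.45 CPM. In 19-1, 5 cells exceeded 100 CPM, a level chosen after the values were seen, against 0 of 24 cells of 19-2, which allows an upper limit of 14.2% of cells, and 1 of 192 equal-mix cells. The other cells of 19-1 formed a narrow band of 41.9 to 93.0 CPM, and among them were cells of every other type found in that library. A UMI of Pvalb was therefore found in 24 of 24 cells of 19-1 (20 of 24 when each cell was thinned to 20000 UMIs) and in 3 of 24 cells of 19-2 (0 of 24 thinned), and at the cells' median depths above, its mere presence does not mark a cell type. Spp1 had the same form. Scn1a had much less of it, since 22 cells of 19-1 held a UMI but 7 held 100 CPM or more. What put the low level of Pvalb into all cells of 19-1 was not tested.

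**Figure D1:**
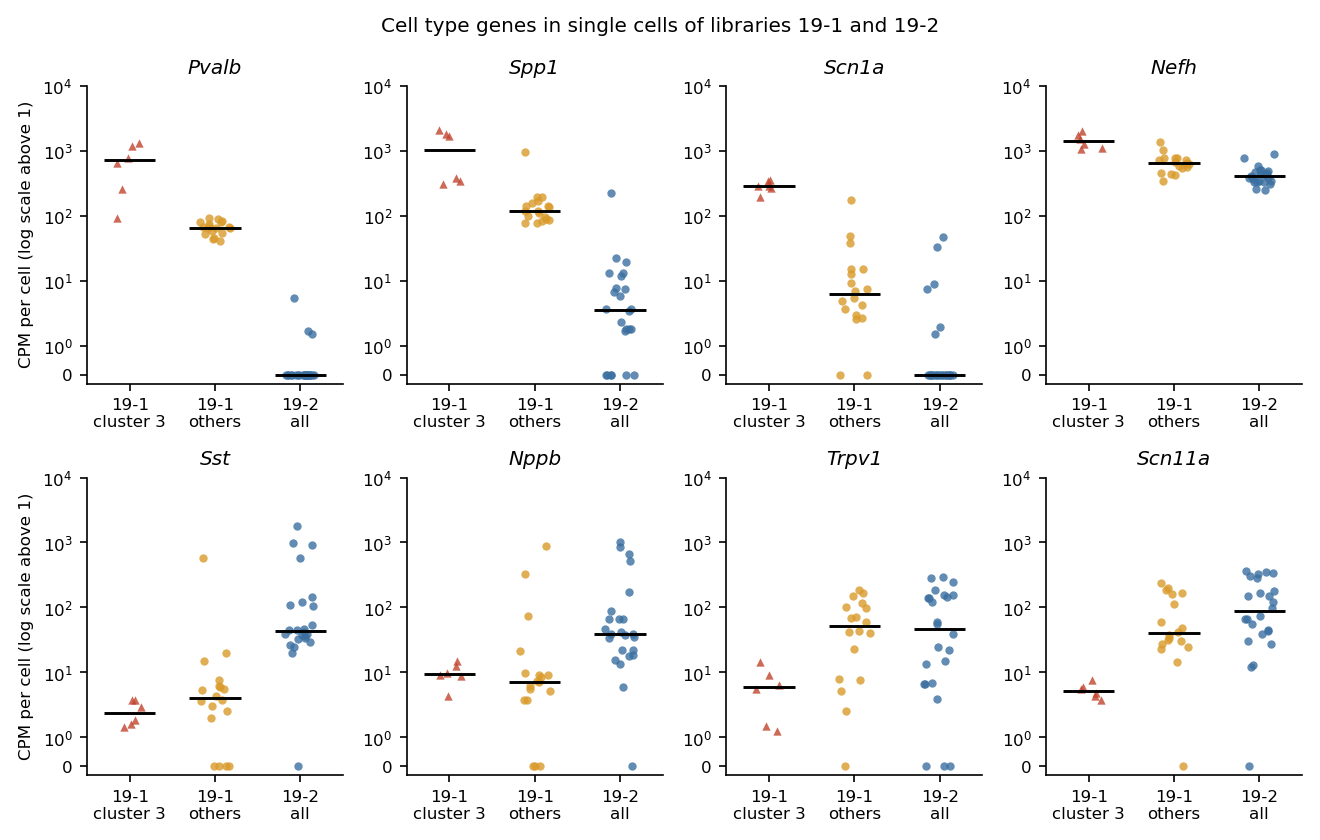
Level of 8 cell type genes in each cell, in CPM on a scale that is linear below 1 and logarithmic above, for the 6 cells of cluster 3 in 19-1 (red triangles), the other 18 cells of 19-1 (orange) and the 24 cells of 19-2 (blue). Black lines are medians. Pvalb forms a band of 41.9 to 93.0 CPM in the other cells of 19-1, while its median in 19-2 is 0.

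Cells of all 17 labelled libraries were clustered without the injury genes, and clusters are called by number and by their leading genes. Cluster 3, led by Shox2, Car2, Mab21l2, Adgrg2, Pvalb and Sparcl1, held 6 of 24 cells of 19-1 (25.0%, exact 95% interval 9.77 to 46.7%) and 0 of 24 cells of 19-2 (upper limit 14.2%). In S-2, S-3, 8 and 9 it held 5, 5, 13 and 3 cells of 48 each, which is 13.5% of 192. Taking the neurofilament and muscle afferent genes out of the variable genes, a check added after the data were seen, kept the same 6 cells and the 0. At a lower resolution of 0.3 the cluster merged with cluster 4 and held 10 and 3 cells. Of the other clusters, cluster 7, led by Sst, Necab2 and Nppb, held 1 cell of 19-1 and 4 of 19-2, and cluster 5, led by Ifitm1, Anxa8 and RGD1564149 and also holding Osmr and Nppb among its leading genes, held 2 and 4. Clusters 0 and 1, with Anxa1 and Tpm2 and with LOC299282, Arg1 and Kit among their leading genes, held 3 and 4 cells and 5 and 5 cells. Cluster 2, led by Kcng1, Cd9 and Tcf15, held 1 and 1, cluster 4, led by Nppa, S100a16 and Kcnv1, 4 and 3, and cluster 6, led by Chrna3, Mrgprb4 and Il7r, 1 and 2. The intervals of the 2 libraries overlapped for every cluster, and cluster sizes were not tested.

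**Figure D2:**
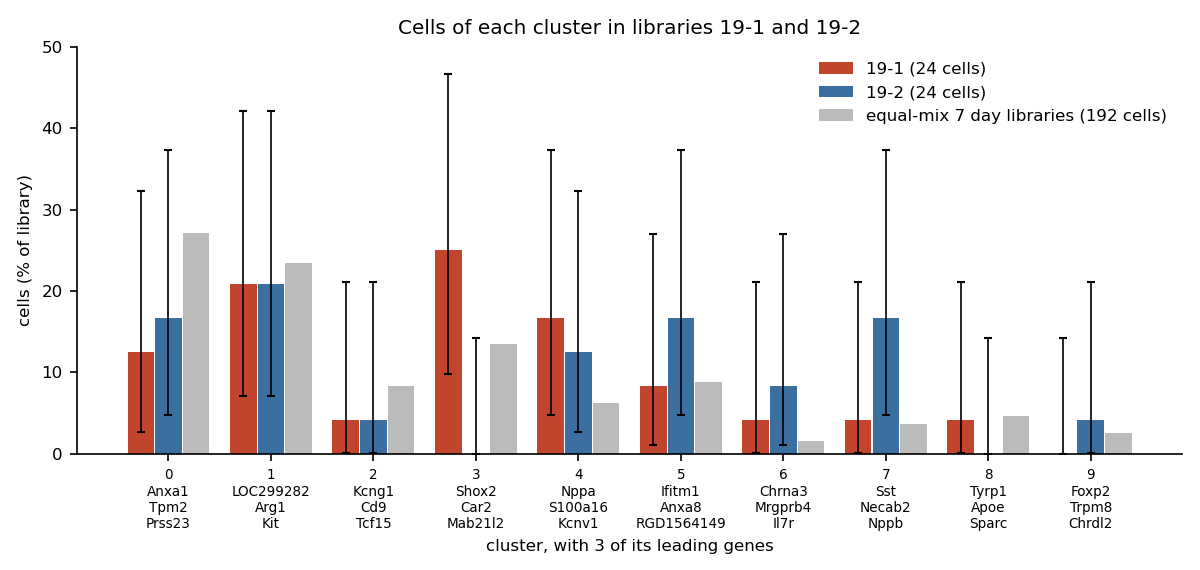
Share of cells in each of the 10 clusters, in percent of the library, for 19-1 (red, 24 cells), 19-2 (blue, 24 cells) and the 4 equal-mix libraries together (grey, 192 cells). Error bars are exact 95% binomial intervals, which cover counting error only. Cluster 3 holds 25.0% of 19-1 and 0 of 19-2.

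Because cells of cluster 3 were deep, with a median of 647866 UMIs against 296976 in the other 18 cells of 19-1, those 6 cells gave 40.8% of the UMIs of the library. When they were left out, a choice made after the data were seen, the genes past 2-fold in either direction numbered 335 of 8458 instead of 931 of 8721. Between libraries with closer dye mixes, with all cells kept, the count was 348 of 8794 genes (3.96%) for 8 and 9 and 209 of 8905 (2.35%) for S-2 and S-3. It was 271 of 8960 (3.02%) for 17-1 and 17-2, which shared the reverse transcription date of the pair. Libraries 8, 9, S-2 and S-3 hold 48 cells each, and 8 and 9 hold 13 and 3 cells of cluster 3. These counts are therefore not like for like with the 335. Without the 6 cells the median log2 ratio was 0.87 over the neurofilament members and 1.24 over the muscle afferent members, and 9 of 9 and 5 of 6 were still higher in 19-1, Etv1 being lower at -0.82. Pvalb stayed 5.75 higher on the log2 scale, through its band in the other cells. A like low level stood in the other cells for more genes: the lowest of them held 77.2 CPM of Spp1 and 83.1 CPM of S100b, and their median level was 10.5% of the cluster 3 mean for both genes, 8.69% for Vsnl1, 3.35% for Hs3st2 and 2.33% for Kcns1. The part of this low level in the remaining difference was not tested.

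Among all genes, those with at least 20 CPM and UMIs in at least 12 cells of the higher library, and with all 4 equal-mix libraries between the pair, were ranked by their log2 ratio. The 10 highest in 19-1 were Pvalb, Hs3st2, Kcns1, Smpx, Shox2, Rem2, Hhatl, Layn, Adgrg2 and Scn1a. Kcns1, a silent potassium channel subunit of large neurons, had 842 UMIs in 19 cells of 19-1 and 0 in 19-2, and was thus at least 282-fold higher, with 0.161 to 4.20 CPM in the equal-mix libraries. Hs3st2, a heparan sulfate sulfotransferase, was at 123 CPM in 19-1 with 1 UMI in 19-2, a ratio of 1176 with an interval of 211 to 46487. Shox2, a homeobox factor of touch neurons, was at 75.7 CPM in 19-1 with 2 UMIs in 19-2, and at 15.1 to 59.7 CPM in the equal-mix libraries. Hhatl was at 120 and 1.15 CPM. Layn, a hyaluronan receptor, was at 52.7 CPM against no UMI in 19-2 and at least 167-fold higher. In the 6 cells of cluster 3 Kcns1 was at 143 to 327 CPM and in the other 18 cells of 19-1 at 0 to 24.5 CPM. In total 250 genes (2.87%) were at least 2-fold higher in 19-1 with all equal-mix libraries between, and 93 (1.07%) at least 2-fold lower. With each cell thinned to 20000 UMIs these numbers were 250 and 220, and without the cells of cluster 3 they were 61 and 41. Of the neurofilament list 5 of 9 members and of the muscle afferent list 3 of 6 met both conditions.

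A list of 17 sodium, calcium, potassium and HCN channel genes, of which 11 were measured, was mixed, with 5 members higher and 6 lower in 19-1 and a median log2 ratio of -0.20. Of these, 4 were past 2-fold higher and none past 2-fold lower. Kcna2, a potassium channel beside the nodes of Ranvier, was at 178 CPM in 19-1, 43.5 CPM in 19-2 and 48.3 to 125 CPM in the equal-mix libraries. Its partner Kcna1 was at 166 and 59.7 CPM, and the node sodium channel Scn8a at 23.4 and 3.36 CPM. The lower members, Kcns3, Kcnd3, Cacna1b and Cacna1c among them, differed by less than 2-fold, and the lowest was Scn3a at -0.70 on the log2 scale. S100b, kept here as a glial marker although large DRG neurons carry it too, was at 748 CPM in 19-1 and 74.6 CPM in 19-2. It reached 914 to 1525 CPM in the cells of cluster 3, and the other 5 measured glial markers were lower in 19-1. Apoe, at 52.6 and 69.2 CPM, turned to 0.73 higher on the log2 scale with cells thinned, and 1 cell gave 58.4% of its UMIs in 19-1.

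In the opposite direction stood the itch-type genes. Sst, somatostatin, was at 26.7 CPM in 19-1 and 288 CPM in 19-2, 10.8 times higher in 19-2 with an interval of 9.47 to 12.3. Equal-mix levels were 95.2, 2.49, 60.7 and 70.4 CPM, so that S-3 lay below both. In 19-2 the 4 cells of cluster 7 held 585 to 1823 CPM and the other 20 held 0 to 146 CPM, with a median of 39.1. In 19-1 the single cell of that cluster held 584 CPM and the other 23 held 0 to 19.6 CPM. Nppb, the natriuretic peptide that relays itch, was at 60.3 and 211 CPM. In clusters 0 and 1 the medians of Sst were 36.8 and 36.2 CPM in 19-2, against 2.60 and 3.68 CPM in 19-1. Those of Nppb were 40.5 and 33.5 CPM in 19-2, against 5.20 and 7.36 CPM in 19-1. The part of this low level in the difference between the libraries was not tested. The itch cytokine receptor Il31ra was at 6.44 and 35.9 CPM, and its partner Osmr at 22.8 and 66.1 CPM. All 5 measured members were lower in 19-1, with a median log2 ratio of -1.79 and of -1.14 without the cells of cluster 3.

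All 11 measured nociceptor genes were lower in 19-1, with a median log2 ratio of -0.59. Trpv1, the capsaicin receptor, was at 39.9 CPM in 19-1 and 112 CPM in 19-2. At least 100 CPM of it was held by 5 cells of 19-1 and 10 cells of 19-2, and the highest cells held 188 and 298 CPM. The sodium channel gene Scn11a (Nav1.9) was at 56.4 and 175 CPM and Scn10a (Nav1.8) at 101.7 and 203 CPM, with equal-mix levels of Scn10a of 64.4 to 98.9 CPM, below both libraries. The irritant receptor Trpa1 was at 10.9 and 29.4 CPM. The peptide precursors differed by less than 2-fold, with Tac1 (substance P) at 430 and 649 CPM and Calca (CGRP) at 711 and 996 CPM. Without the cells of cluster 3 the median over the 11 genes was -0.11, beside -0.07 over all genes. Then 3 of 11 were higher in 19-1, as were 3577 of all 8721 genes. With each cell thinned to the same depth the median over all cells was -0.24. Among other small-neuron genes, Mrgprb4, a receptor of stroking-sensitive fibres, had 2 UMIs in 19-1 and 222 in 8 cells of 19-2, a ratio of 110 with an interval of 30.2 to 917. A single cell held 208 of the 222 UMIs, and without it the log2 ratio was -1.09 instead of -4.33. Trpm8, the cold receptor, was at 13.5 and 43.8 CPM. The other measured members of its list, Tafa4 and Zfp521, were higher in 19-1, at 2.84 and 1.33 on the log2 scale. Mrgprd was at 0 in both.

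The lower genes ranked by the same rule as above were Rbp2, RT1-CE5, Trib3, Lpar1, Ppfibp2, Tmem140, Dpysl4, Eml1, Triobp and Plaur. Rbp2, a retinol-binding protein, was at 2.53 CPM in 19-1 and 27.4 CPM in 19-2, where 1 cell gave 72.4% of its UMIs, and its log2 ratio was -1.37 without that cell. Trib3, a pseudokinase of the stress response, was at 10.8 and 46.8 CPM, and was the only one of 10 stress genes past 2-fold. Dpysl4, of the collapsin response mediator family, was at 28.3 and 93.7 CPM. Plaur, the urokinase receptor, was at 33.7 CPM in 19-1, 104 CPM in 19-2 and 46.1 to 73.9 CPM in the equal-mix libraries. In the median cell it stood at 37.8 and 83.2 CPM.

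The injury-responsive genes bear most directly on the labels, by which 20 of 24 neurons in 19-1 and 4 of 24 in 19-2 came from crushed branches. None of the 23 measured members was 2-fold higher in 19-1, beside 6.71% of all genes. Sprr1a, Vip and Crh were more than 2-fold lower, beside 3.97% of all genes. Atf3, the transcription factor most used as a sign of axon injury, was at 371 CPM in 19-1 and 499 CPM in 19-2, and both lay below the equal-mix libraries at 577 to 645 CPM. It was found in all 24 cells of both, from 48.7 through a median of 446 to 1842 CPM in 19-1 and from 104 through 519 to 1332 CPM in 19-2. Sham libraries held 364 to 950 CPM of it, so that the levels of the pair lay within the range of rats whose nerve was not crushed. Sprr1a, a cornified envelope protein that growing axons use, was at 54.9 and 131 CPM, and 5 cells of 19-1 against 14 of 19-2 held at least 100 CPM. Gal, the peptide galanin, was at 749 and 863 CPM, Jun at 236 and 337 CPM, and the growth cone protein Gap43 at 1091 and 1551 CPM. Vip, a peptide that axotomized neurons make, was at 221 and 471 CPM. Crh was at 1.58 and 17.6 CPM, and in S-2 at 25.1 CPM. In 19-2 a single cell held 151 of its 168 UMIs, and without that cell the log2 ratio was -0.17 instead of -2.85. Only Nts and Adcyap1 were higher in 19-1. For Nts the log2 ratio was 0.39, and 1.20 without 1 cell of 19-2 that held 104 of its 225 UMIs there. Adcyap1, which encodes the peptide PACAP that the study follows, was at 288 CPM in 19-1 and 226 CPM in 19-2, against 333 to 476 CPM in the equal-mix libraries, which lay above both. Npy was at 0 in both libraries.

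The 6 cells of cluster 3 in 19-1 stood apart in these genes, which had been kept out of the clustering. Their Atf3 ran from 48.7 to 231 CPM with a median of 128, against a median of 523 CPM in the other 18 cells of 19-1. Sprr1a was at 0 to 10.3 CPM in the 6 cells, and Gap43 at a median of 183 CPM against 1866. Gadd45a was at 164 to 241 CPM in the 6 cells and at 337 to 2897 CPM in the others. Cells of the same cluster in the equal-mix libraries had higher medians over ranges that took in those of the 6 cells for Atf3 and Sprr1a. Those 26 cells had a median of 576 CPM of Atf3 (43.9 to 1082), 156 CPM of Sprr1a (0 to 576) and 1184 CPM of Gap43 (176 to 1838), and their means of Atf3 were 624, 289, 663 and 662 CPM in S-2, S-3, 8 and 9. The 6 cells also held 93.0 to 1327 CPM of Pvalb, whereas the median of the 26 was 6.26 CPM and the highest 717 CPM. Hapln4 was at a median of 160 CPM in the 6 cells and 0 in the 26. The 23 sham cells of the cluster had a median of 556 CPM of Atf3 (15.9 to 1263). The 6 and the 26 cells differ in library, in the year of reverse transcription and in the type genes Pvalb and Hapln4. Whether they differ in dye is not known, and library, year, neuron type and dye cannot be told apart here.

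**Figure D3:**
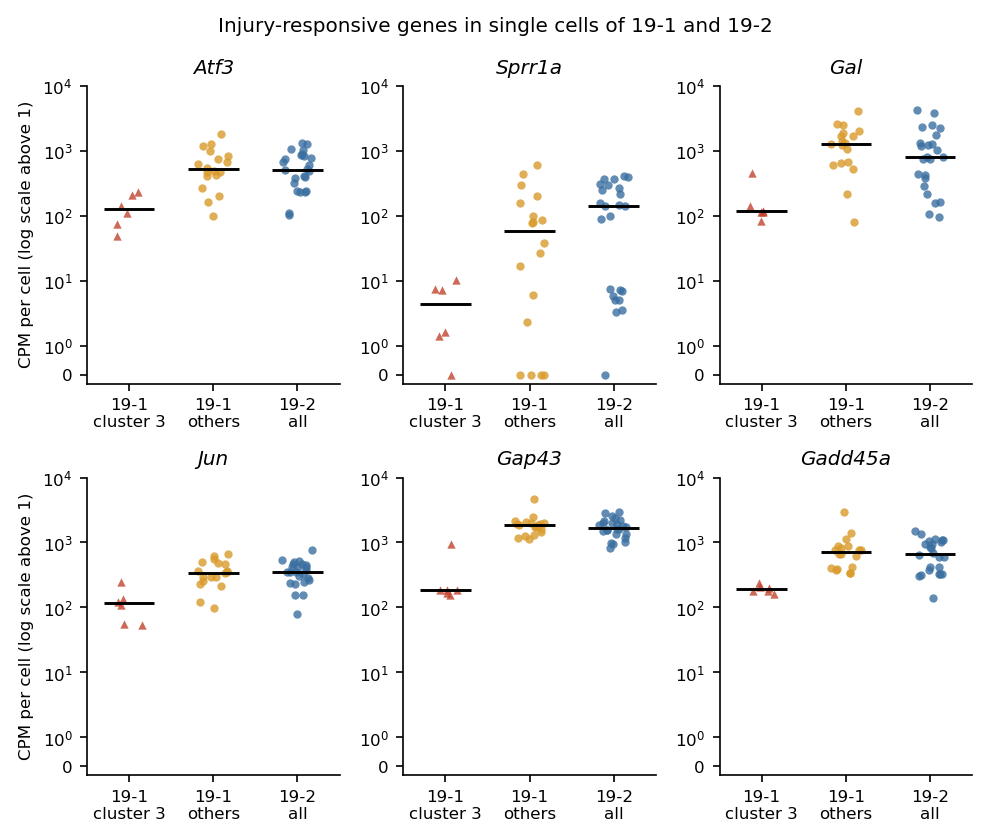
Level of 6 injury-responsive genes in each cell, in CPM on a scale that is linear below 1 and logarithmic above, for the 6 cells of cluster 3 in 19-1 (red triangles), the other 18 cells of 19-1 (orange) and the 24 cells of 19-2 (blue). Black lines are medians. The medians of Atf3 are 128, 523 and 519 CPM from left to right.

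The median log2 ratio over the 23 genes was -0.51 with all cells and -0.06 without the 6, beside -0.07 over all genes. Then 10 genes were higher and 13 lower in 19-1, beside 3577 higher and 5144 lower of all 8721. Crh was still more than 2-fold lower (-2.41), with 151 of its 168 UMIs in 19-2 from 1 cell, and Sprr1a was at -0.55. Among the 10 higher genes Adcyap1 was at 0.88 and Gal at 0.41. Giving each cell equal weight also brought the median with all cells nearer to 0, to -0.25 by the mean of the cells' own CPM and to -0.13 with each cell thinned. Within cluster 1 (5 and 5 cells) the median of Atf3 was 841 CPM in 19-1 and 534 CPM in 19-2, with ranges of 493 to 1211 and 409 to 1332 CPM that overlapped. Within cluster 0 (3 and 4 cells) the medians were 642 and 827 CPM, and within cluster 4 (4 and 3 cells) 414 and 497 CPM, also with overlapping ranges. Gal in cluster 1 had medians of 2052 and 1233 CPM, and the range of 19-1, 1674 to 2625 CPM, lay inside that of 19-2, 431 to 4296 CPM. Over the 24 listed genes in these 3 clusters, 2 of 72 pairs of ranges did not overlap, both in cluster 4 and both lower in 19-1: Vip at 9.06 to 18.9 against 38.7 to 86.3 CPM, and Klf6 at 80.4 to 145 against 167 to 230.1 CPM. In cluster 1 the medians of Sox11 were 0 and 19.7 CPM. The median was higher in 19-1 for 4 of 24 genes in cluster 0, 11 in cluster 1 and 7 in cluster 4, and lower for 19, 10 and 15. Npy, at 0 in all these cells, could not differ. Neither the ranges nor the medians were counted over all genes of these clusters, so no reading of the injury genes as a group is drawn. The other clusters held under 3 cells on one side or both, and no comparison is drawn within them.

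Of the remaining lists, all 6 measured immediate early genes were lower in 19-1, with a median log2 ratio of -0.69. Junb was at 40.7 and 91.6 CPM and Fosb at 15.5 and 48.9 CPM, and both stayed more than 2-fold lower without the cells of cluster 3. Among 11 measured cytoskeleton genes none differed by 2-fold, with Tubb3 at 2026 and 2433 CPM, nor did any of 7 growth factor and cytokine receptors, with Ret at 111 and 165 CPM and Ngfr at 340 and 271 CPM. In a list of 8 genes picked from those the study names, 7 were lower in 19-1, beside 4465 of all 8721 genes. Trpa1 and Trpv1 were lower by more than 2-fold. Without the cells of cluster 3, 5 of the 8 were lower and 3 higher. Cd9, a tetraspanin, was at 114 and 123 CPM with an interval of the 19-1 to 19-2 ratio of 0.850 to 1.00. Its log2 ratio turned to 0.54 without the cells of cluster 3 and to 0.50 with cells thinned. Gpx3 was at 11.5 and 19.0 CPM. The study followed those genes in these same libraries.

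**Figure D4:**
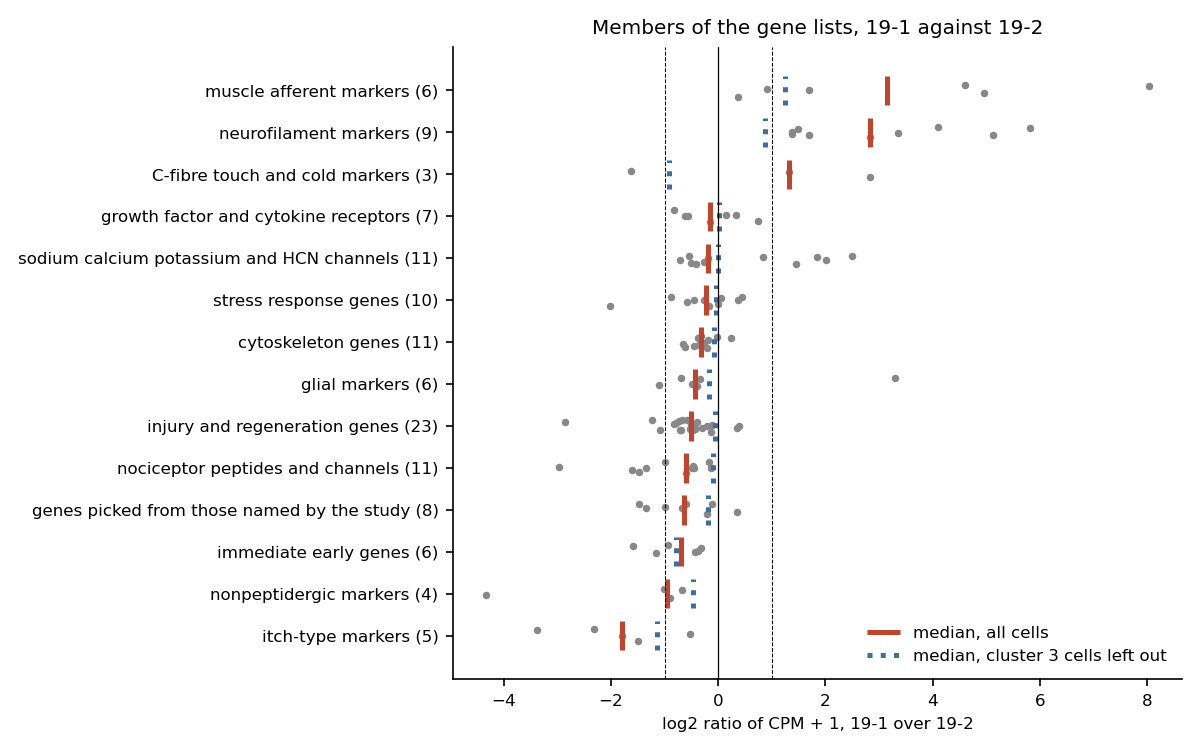
Log2 ratio of CPM + 1 in 19-1 over 19-2 for each measured member (grey points) of 14 gene lists, with the number of members in parentheses. Red bars are medians over all cells and blue dotted bars medians with the cells of cluster 3 left out, and dashed lines mark a 2-fold difference. The injury list moves from -0.51 to -0.06 and the neurofilament list from 2.83 to 0.87.

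To set the pair against a spread between samples, the UMIs were summed over 12 DRG samples of SNC rats and fitted with edgeR's quasi-likelihood test, with the crushed share as the tested term. The pair is then assumed to vary like the other samples, and p-values measure the spread between samples of which nothing says that each came from its own rats. Libraries 19-1 and 19-2 sum 24 cells each, as do 17-1 and 17-2. The other samples sum more, such as 48 in libraries 8, 9 and 17-3 and 94 to 96 in libraries 13 to 16. The pair may thus vary more than the fit assumes, and its p-values may be too small. Of 14459 genes 181 (1.25%) were called at a Benjamini-Hochberg adjusted p under 0.05, 148 higher (1.02%) and 33 lower (0.228%) in 19-1. Of 9 neurofilament genes tested, 5 were among the higher calls. Nefh had a fitted log2 difference of 1.36 ± 0.22 (SE, adjusted p = 0.0211), Nefl 1.43 ± 0.24 (adjusted p = 0.0226), Scn1a 5.27 ± 0.75 (adjusted p = 0.0138), and Nefm and Kcnc1 were called too. Kcna2 and S100b were called higher as well. Scn11a (-1.61 ± 0.33, adjusted p = 0.0383), Kcnk18 and Mrgprb4 were called lower. Csrp3, a muscle LIM protein, was at 26.5 CPM in 19-1 and 212 CPM in 19-2 and was called lower (-3.09 ± 0.41, adjusted p = 0.0123), as were Cd24 at 16.2 and 96.0 CPM, the cytokine Il24 at 6.86 and 73.4 CPM and Plaur. For Csrp3, Cd24 and Il24 some or all equal-mix libraries did not lie between the pair.

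Pvalb itself was not called (log2 difference 7.70 ± 3.01, adjusted p = 0.227), nor was any of the 7 muscle afferent genes tested by edgeR, 4 of which had an unadjusted p under 0.05 and were higher in 19-1 (8.98% of all genes) and 3 of which DESeq2 called higher (3.8% of all genes). None of the 23 injury genes was called by edgeR. Of these, 11 had an unadjusted p under 0.05, all lower in 19-1 (6.76% of all genes), and DESeq2 called Sprr1a, Smad1 and Klf6 lower (1.62% of all genes). None of the 5 itch-type genes tested was called by either tool, with 3 at an unadjusted p under 0.05. Among the 10 largest coefficients each way, the higher ones were Asb16, Htr2c, Amhr2, AABR07056515.1, Layn, Cyp7b1, Kcns1, AABR07066861.1, Krt13 and Efnb2. All 10 had no UMI in 19-2, so their coefficients are no fold. The lower ones were Glis3, Abca13, Mrgprb4, Kcnk18, Rbp2, Il24, Csrp3, Cd24, Htr4 and Prrg4. Glis3 had no UMI in either library and Asb16 had 3 in all, and their calls rest on the other samples. The ligand Efnb2 was at 33.7 CPM in 19-1 and Amhr2 at 14.9 CPM, 81.6% of it from 1 cell.

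The number of calls was not firm. It was 0 when the 4 sham samples were added for the spread (1584 genes with an unadjusted p under 0.05, against 2276), 2 with cells thinned to 20000 UMIs, 28 with 7-day samples alone, 93 without the year as a term and 783 with DESeq2, and with no filter on low counts it was 1083. With 1 sample left out at a time it ran from 91 without library 17-2 to 319 without library 8, and was 114 without library 14.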

How the data were processed

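Single DRG neurons were sequenced by the authors with a modified Smart-seq2 protocol that adds cell barcodes and UMIs. The deposited values are UMI counts per gene and cell: per the labels and methods, reads were aligned with STAR to Rnor_6.0, assigned with featureCounts and SAMtools and collapsed with UMI_tools. No normalization had been applied. Of 32883 genes per file, the 32881 shared by all files were used. Gene symbols carry no position.

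Groups came from the labels. Members, gene lists and tests were chosen with earlier results of these data known. CPM were computed from counts summed over cells, and log2 ratios with a pseudocount of 1 CPM. A gene was measured at 10 CPM or more in either library. Genes named are list members, the 10 largest ratios each way under the limits given in the text, and the 10 largest coefficients each way among calls. Genes given outside these rules were chosen after their values were seen.

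Sums per DRG sample were fitted with edgeR 4.0.16 (quasi-likelihood, TMM, filterByExpr), with time, the year of reverse transcription at 7 days and the crushed share as terms, leaving 7 residual degrees of freedom. The share was scaled so that its coefficient is the log2 difference of 19-1 minus 19-2. DESeq2 1.42.0 was an alternative. On data simulated for this comparison with 14144 genes, 200 of them changed, edgeR made 171 calls, of which 8 were false. It recovered 36% of genes with a simulated log2 difference of 1 and 92% of those with a difference of 2. The simulated samples shared the same spread per gene whatever their number of cells. A wider spread of the pair was therefore not tested. Cells were clustered with Seurat 5.3.0 (2000 variable genes less 11 injury genes, 40 principal components, resolution 0.5). No doublet caller was run, since neurons were picked by hand. Cell names hold no barcode, so shared barcodes could not be counted. Intervals are exact (Poisson, Clopper-Pearson or conditional binomial). Python 3.11.15 and R 4.3.3 were used. Of 159 listed genes 5 were not analysed here, and values of some single genes are not reported here.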

Additional observations from a re-analysis of the deposited data

Results flagged for a closer look

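In 12 of 172 groups of 4 libraries (6.98%), over 86 genes named or listed, 1 library stood apart, with a gap to its neighbour above Dixon's 95% critical share of the range on the log2 CPM scale. Chance alone does this in about 1 group in 20. Among the equal-mix libraries, library 8 was high for Kcna1 (gap 0.8789 of the range, 167 CPM against 86.8 to 93.9) and S100b (0.8621, 755 CPM against 351 to 390), and it also held the most cluster 3 cells. Library S-3, with no cell of cluster 7, was low for Sst (0.8661, 2.49 CPM against 60.7 to 95.2) and Nppb (0.8884, 4.27 CPM against 80.6 to 114) and high for Amhr2 (0.9126, 1.49 CPM). Library 9 was low for Adgrg2 (0.9093, 9.44 CPM) and S-2 high for Crh (0.9057, 25.1 CPM against 0.640 to 1.13). Among sham libraries, 4 was low for Adcyap1 (0.8939, 156 CPM against 355 to 391) and 10 high for Crh (0.8586, 11.5 CPM). Library Xin was low for Scn11a (0.9033, 39.2 CPM against 130 to 148) and high for Trib3 (0.8489, 62.2 CPM) and Triobp (0.8428, 27.7 CPM).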

How the results depend on the processing

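The number of edgeR calls, 181 as reported, was 783 with DESeq2, 1083 with no filter on low counts, 93 without the year of reverse transcription, 28 with 7-day samples alone, 0 with the sham samples added and 2 with cells thinned to 20000 UMIs, and ran from 91 to 319 with 1 sample left out at a time. DESeq2 called all 181, and 75 remained without the year. With 7-day samples alone 14 of the 181 remained, with cells thinned 1 and with the sham samples added 0. Genes past 2-fold, 931 as reported, numbered 528 by the mean of the cells' own CPM, 1497 with cells thinned, 321 with a minimum of 50 CPM, 1873 with no minimum and 335 without the cells of cluster 3. Those with all equal-mix libraries between, 250 higher and 93 lower in 19-1 as reported, numbered 141 and 32 by the mean of the cells' own CPM, 250 and 220 with cells thinned and 61 and 41 without cluster 3. By the mean of the cells' own CPM the list medians on the log2 scale were -0.25 for injury genes, -0.29 for nociceptor genes, -0.39 for nonpeptidergic, 2.32 for neurofilament, 0.19 for glial, -0.39 for immediate early, -0.22 for cytoskeleton, 0.0089 for channel and -0.014 for receptor genes. With cells thinned they were, in that order, -0.13, -0.24, -0.13, 2.34, 0.25, -0.95, -0.12, 0.29 and -0.36, and -0.21 for C-fibre touch and cold genes and -0.16 for the 8 genes picked from those the study names. Without cluster 3, a setting chosen after the data were seen, the medians were -0.056 for injury, -0.11 for nociceptor, -0.47 for nonpeptidergic, 0.87 for neurofilament, 1.24 for muscle afferent, -0.92 for C-fibre, -0.069 for cytoskeleton, -0.0078 for channel, 0.0068 for receptor and -0.039 for stress genes and -0.18 for those 8. A pseudocount of 5 CPM gave 1.99 for neurofilament and 2.30 for muscle afferent genes, and leaving out the cell with most UMIs of each library gave -0.60 for injury genes. Among genes past 2-fold the direction turned for Mrgprx3, to 0.16 with cells thinned and also to 0.16 without its highest cell, and for Zfp521, to -0.21 with cells thinned and -1.01 without cluster 3. Of 864 single-gene values under 6 settings, 560 moved by less than 1 SD of the equal-mix libraries. The sign differed from the reported one in 55, whatever the size: 25 of 144 genes without cluster 3, 17 with cells thinned, 9 by the mean of the cells' own CPM and 4 without the highest cell. The causes were not tested. With 24 cells a library, a cell type absent from one side could still make up 14.2% of the neurons it was drawn from.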

Other observations

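Genes of C-fibre touch and cold neurons were mixed, with 2 of 3 measured members higher in 19-1. Tafa4, a secreted protein of low-threshold C fibres, was at 16.7 CPM in 19-1 and 1.47 CPM in 19-2, with UMIs in 17 and 4 cells, and at 8.14 to 35.5 CPM in the equal-mix libraries. Zfp521, a zinc finger protein, was at 26.5 and 9.97 CPM with all cells. In 19-1 both had higher means in the cells of cluster 3, at 31.3 against 5.88 CPM for Tafa4 and 58.3 against 4.49 CPM for Zfp521. A single cell gave 107 of the 158 UMIs of Tafa4 in 19-1, and without it the log2 ratio was 1.46 instead of 2.84. Without the cells of cluster 3 the log2 ratio was 1.36 for Tafa4 and -1.01 for Zfp521, and the list median was -0.92. The myelin gene Mbp was at 42.7 and 92.9 CPM. Lifr, the receptor of leukaemia inhibitory factor, was at 71.6 CPM in 19-1 and 128 CPM in 19-2, and both lay below the equal-mix libraries at 212 to 299.96 CPM. Mrgprx3, a receptor of the Mas-related family, was at 17.6 and 36.6 CPM, above the equal-mix libraries at 4.06 to 7.58 CPM in both. These genes were picked from the lists after their values were seen.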
